A study of Rattus norvegicus with 22 samples.

Results

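The genes described here are 33 genes of the endoplasmic reticulum (ER) stress response and of the transcription factor ATF4, chosen by name. Of these, 32 were found on the array, 31 of them by the gene name in the scanner files and Sesn2 through its probe accession, while no probe was named for Edem1. The 32 genes had 37 probes, all well above background on all 22 arrays, out of 23456 genes tested. They fall into 4 groups by role: 7 sensors and transcription factors, 11 measured genes of chaperones, folding and disposal, 5 feedback and stress effectors, and 9 genes of amino acid supply and one-carbon metabolism.

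The tissues were engineered cardiac constructs made from ventricle cells of Sprague Dawley rat embryos at gestational day 14.5, set in a matrix, held between anchors and cultured for 7 days. The 7 control tissues were neither stretched nor given BIRB796, and 7 tissues were stretched in one axis at 0.5 Hz and 5% elongation for 48 h from culture day 5. BIRB796, which the treatment protocol names as an inhibitor of the kinase p38 MAPK at 10 µM, was given for 48 h to 4 unstretched tissues and to 4 stretched tissues. The labels call the samples biological replicates but tie none to a litter or culture, so the p-values reflect only how these tissues varied.

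The arrays were scanned in 3 sessions on 9 slides. Session 1 held controls 1 to 3 and stretch replicates 1 to 3, with a control and a stretch array on each slide; session 2 held stretch replicates 4 to 7 alone; session 3 held controls 4 to 7 and both BIRB796 groups. Stretch replicates 4 and 5 differed by less than the noise between repeated spots and were averaged, so that 21 samples entered the fits. Stretch replicate 7 had the dimmest array and stood apart in several of the genes below. The 14 cardiomyocyte markers checked, such as Myh6 and Tnnt2, were above background on every array. Values are log2 signals minus the array's 75th percentile, so 0 is the level of that percentile, and levels of different genes are not comparable.

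Misfolded protein in the ER is sensed by PERK (Eif2ak3), IRE1 (Ern1) and ATF6. ATF6 and spliced XBP1 act through ER stress elements to raise chaperones and disposal factors, while PERK, like other kinases that phosphorylate eIF2 alpha, favours translation of ATF4. ATF4 binds C/EBP-ATF composite elements and drives amino acid transport, serine and one-carbon synthesis, tRNA charging and, with CHOP (Ddit3), feedback and stress effectors. Both arms are known to be engaged in stressed heart muscle cells, and the ATF4 arm also responds to amino acid shortage.

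Both kinds of element can be seen in promoter windows of these genes. RefSeq promoters of build GRCr8 (250 bases before to 50 after the start) were held for 29 of the 33 genes, and none for Ern1, Atf6, Pdia6 and Manf. The ER stress element was searched on both strands as CCAAT, 9 bases of any kind and CCACG. It matched 6 of the 29 (Xbp1, Hspa5, Hsp90b1, Calr, Canx and Creld2), against 0.0765% of the 27457 genes with a promoter window. The composite element, searched as TGATGNAAN, matched 4 of the 29 (Herpud1, Trib3, Chac1 and Aars), against 4.14% of these 27457 genes. TGACGTGG, the element bound by XBP1 and ATF6, matched 0 of the 29 and 0.681% of the 27457 genes. No match overlapped another in these windows. The sequences below are upstream of the start, in the direction of the gene, with the motif in capitals. They show the form of the ER stress element in 4 ER chaperones and of the composite element in 2 ATF4 targets, as examples of the 6 and the 4 genes with a match.
Hspa5, chr3:38452953-38453011, plus strand: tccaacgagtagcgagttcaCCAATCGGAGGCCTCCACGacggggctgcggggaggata
Hsp90b1, chr7:23012327-23012489, minus strand: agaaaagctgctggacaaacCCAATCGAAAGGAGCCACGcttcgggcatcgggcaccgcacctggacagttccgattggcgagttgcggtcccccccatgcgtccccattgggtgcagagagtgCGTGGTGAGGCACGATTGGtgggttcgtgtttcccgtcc
Calr, chr19:40213117-40213173, plus strand: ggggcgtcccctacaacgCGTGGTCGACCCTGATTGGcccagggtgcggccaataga
Canx, chr10:35158049-35158107, minus strand: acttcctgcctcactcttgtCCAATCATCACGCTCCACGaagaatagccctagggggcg
Trib3, chr3:161275534-161275575, minus strand: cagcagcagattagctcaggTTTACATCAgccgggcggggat
Aars, chr19:55908349-55908397, plus strand: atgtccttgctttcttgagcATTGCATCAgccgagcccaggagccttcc
The match in Calr, Trib3 and Aars and the match of Hsp90b1 nearer the start lie on the opposite strand, and Aars has a further match after the start, outside the stretch shown. A match is a description of these letters and not a bound site. The windows of Phgdh, Psat1, Mthfd2 and Pdia4 held no match to any of the 3 motifs.

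Between unstretched tissue with BIRB796 and control, Phgdh of serine synthesis was the 1 of the 32 genes to pass the test in session 3 alone, and none passed with all sessions fitted together. All 9 genes of amino acid supply had a positive difference, with a median of 0.24 on the log2 scale, against a median of -0.02 over all genes tested. The 9 were also all positive under each of the 3 other scalings tried. The 11 chaperone and disposal genes had a median of -0.03, with 8 below and 3 above 0, and this median turned positive with median scaling and with the authors' log2 table. With scan session as a term and the spread shared over all 4 groups, 0 of the 32 genes passed an adjusted p of 0.05, and 0% of all genes did. At an unadjusted p under 0.05, 2 of the 32 were found (Phgdh higher, Cebpb lower), where 6.21% of all genes were. With array weights and a mean-variance trend, 5 of the 32 passed: Phgdh, Mthfd2 and Atf4 higher, Cebpb and Sdf2l1 lower, and 11.4% of all genes passed.

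Phgdh, the first enzyme of serine synthesis, measured 4.27, 4.12, 3.93 and 4.26 in the 4 controls of session 3. It measured 4.89, 4.70, 4.71 and 4.52 with BIRB796. Every BIRB796 sample lay above every control. The difference was 0.56 ± 0.15 (SE), a 1.47-fold higher level, with a limma adjusted p of 0.33 under the session term. Fitted on session 3 alone, where the spread is smaller, the same difference had an SE of 0.11 and an adjusted p of 0.041 with limma, and Phgdh was the 1 of the 32 genes that passed there, where 0.733% of all genes passed as higher and 1.78% in either direction. With slide as a random block in that session the adjusted p was 0.081. Controls 5 and 6 were nearly alike, on the same slide and differing by 1.58 times the spot noise, and with these 2 averaged it was 0.13. Left out one at a time, 9 of the 12 samples of session 3 ended the call, with differences between 0.49 and 0.62.

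Psat1, the next enzyme of serine synthesis, measured 0.67, 0.57, 0.61 and 0.69 in those controls. With BIRB796 it measured 1.16, 0.77, 0.94 and 0.93, again without overlap. The difference was 0.31 ± 0.09 in session 3 alone, with a limma adjusted p of 0.11. Phgdh and Psat1 were the 2 of the 32 genes that lay wholly above control, as 4.9% of all genes did.

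Mthfd2, which encodes a mitochondrial enzyme of folate one-carbon metabolism and is a strong ATF4 target, measured 0.96, 1.02, 0.98 and 1.44 in the controls. It measured 1.68, 1.64, 1.33 and 1.60 with BIRB796. Control 7 reached into the BIRB796 range and the other 3 controls lay below it. The difference was 0.46 ± 0.13 in session 3 alone (limma adjusted p 0.090). When the 12 samples of session 3 were left out 1 at a time, it did not pass in 11 of the 12 fits. Over these fits it ran from 0.42 to 0.57, with a limma adjusted p of up to 0.24. Only without control 7 did it pass, at 0.57 with a limma adjusted p of 0.013. All 3 probes of Mthfd2 had a positive difference, from 0.29 to 0.46.

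None of the other 6 genes of this group passed. Cth, which makes cysteine from cystathionine, had a difference of 0.36 ± 0.26 in session 3 alone, most of it from BIRB796 replicate 1 at -3.32 while the other BIRB796 samples lay between -4.48 and -4.11 and the controls between -4.48 and -4.29. Asns, asparagine synthetase, differed by 0.24 ± 0.13, with BIRB796 replicate 1 at 2.24 and the rest between 1.69 and 1.89. Slc7a5 and Slc3a2, the chains of the large neutral amino acid transporter, differed by 0.22 ± 0.20 and 0.07 ± 0.11. Aars, the alanyl-tRNA synthetase, and Shmt2, the mitochondrial serine hydroxymethyltransferase, differed by 0.17 ± 0.08 and 0.13 ± 0.07. BIRB796 replicate 1 was the highest of its group in 19 of the 32 genes, Phgdh, Psat1, Mthfd2, Asns, Cth, Slc7a5 and Shmt2 among them. It shared slide 6 with control 4 and with replicate 1 of the stretched BIRB796 tissues, and on that slide Phgdh differed from control by 0.62, Mthfd2 by 0.72 and Asns by 0.74. BIRB796 replicates 2 to 4 lay on slide 9, which held no control. Slide 6 thus gave the only within-slide comparison of BIRB796 with control, and for replicates 2 to 4 slide and treatment cannot be told apart.

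Among the transcription factors, Atf4 itself measured 3.71, 3.59, 3.62 and 3.94 in the controls of session 3 and 3.93, 3.86, 3.86 and 4.00 with BIRB796. Its difference was 0.20 ± 0.09 in session 3 alone, with a limma adjusted p of 0.26. Cebpb, which encodes a partner of ATF4 on composite elements, measured 1.90, 1.93, 2.00 and 1.82 in the controls. It measured 1.37, 1.38, 1.1 and 1.67 with BIRB796, so that no value overlapped. It was the only one of the 32 genes wholly below control, as 6.94% of all genes were. The difference was -0.53 ± 0.17 with the session term (limma adjusted p 0.43) and -0.53 ± 0.14 in session 3 alone (adjusted p 0.077). The sensors Eif2ak3 and Ern1 and the factors Xbp1 and Ddit3 differed by -0.02, -0.04, 0.03 and -0.01, and Atf6 by 0.06.

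**Figure D1:**
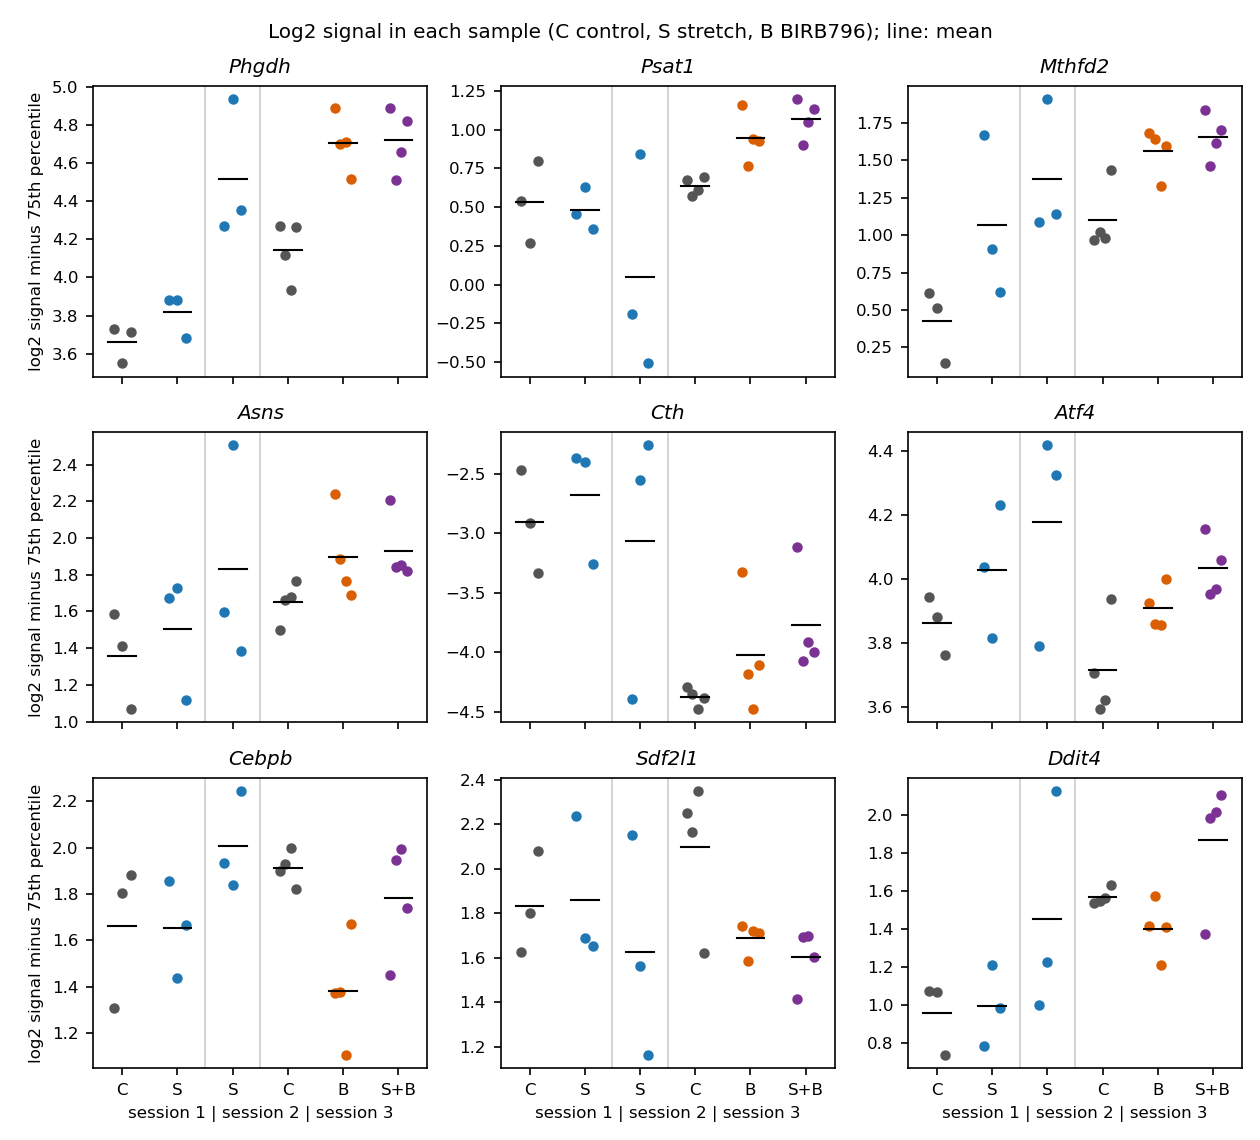
Log2 signal minus the array's 75th percentile for 9 genes, 1 point per sample, in columns of control (C), stretch (S), BIRB796 (B) and both (S+B), with vertical lines between the 3 scan sessions and a horizontal line at each mean. In session 3 all BIRB796 points of Phgdh and Psat1 lie above the 4 controls and all of Cebpb below them, while session 1 and session 2 sit at other levels.

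Of the chaperones and disposal factors, Hspa5 (BiP, the main ER chaperone) measured 4.14, 4.14, 4.22 and 3.94 in control and 3.93, 3.95, 3.89 and 4.05 with BIRB796, a difference of -0.15 ± 0.09 in session 3 alone. Sdf2l1, a subunit of ER chaperone complexes, measured 2.25, 2.17, 2.35 and 1.62 in the controls and between 1.59 and 1.74 with BIRB796. Control 7 was level with the treated samples there, and the difference was -0.41 ± 0.14 with a limma adjusted p of 0.15; the second probe gave -0.45. Calr, the lectin chaperone calreticulin, had a difference of -0.36 ± 0.25, with BIRB796 replicate 3 at 2.16 and the others between 3.18 and 3.54. The remaining 8 genes, Hsp90b1, Canx, Pdia4, Pdia6, Dnajb9, Creld2, Manf and Herpud1, differed by -0.15 to 0.17. Of the feedback and effector genes, Trib3, Ppp1r15a, Chac1, Sesn2 and Ddit4 differed by 0.26, 0.25, 0.25, 0.12 and -0.17.

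Stretched tissue with BIRB796 against control, in the same session, had Phgdh, Psat1 and Mthfd2 past the test in session 3 alone and none with all sessions fitted together. This comparison and that of BIRB796 with control share their 4 controls, and their values are given side by side only. All 9 amino acid genes and all 5 effectors had positive differences, with medians of 0.43 and 0.30, against 0.04 over all genes. Under the 3 other scalings both groups were again all positive. The chaperone and disposal genes had a median of -0.01, which turned positive with median scaling. With the session term 0 of the 32 passed, and 0.0767% of all genes did; 4 were at an unadjusted p under 0.05 (Phgdh, Mthfd2 and Atf4 higher, Sdf2l1 lower), where 9.35% of all genes were. With array weights and a trend, 9 of the 32 passed, and 19.9% of all genes did.

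In session 3 alone, Phgdh, Psat1 and Mthfd2 rose in stretched tissue with BIRB796, which makes 3 of the 32 genes where 3.28% of all genes rose and 7.58% passed in either direction. Phgdh measured 4.89, 4.51, 4.66 and 4.82, a difference of 0.57 ± 0.11 with a limma adjusted p of 0.021. Psat1 measured 1.20, 0.90, 1.05 and 1.13, a difference of 0.43 ± 0.09 with an adjusted p of 0.026. Mthfd2 measured 1.83, 1.46, 1.61 and 1.70, a difference of 0.55 ± 0.13 with an adjusted p of 0.032. All 4 treated samples of each gene lay above all 4 controls. The 3 calls remained with slide as a random block, at limma adjusted p of 0.019, 0.023 and 0.043. They did not remain with controls 5 and 6 averaged, at 0.068, 0.085 and 0.10. Leaving out 1 of the 12 samples at a time ended the call in 5 cases for Phgdh, 6 for Psat1 and 6 for Mthfd2, with differences of 0.50 to 0.64, 0.39 to 0.49 and 0.49 to 0.66.

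Within slides the sizes were uneven. On slide 6, replicate 1 exceeded control 4 by 0.62 in Phgdh, 0.52 in Psat1 and 0.87 in Mthfd2. On slide 8, replicates 2 and 3 exceeded control 7 by 0.25 and 0.39 in Phgdh, by 0.21 and 0.35 in Psat1, and by 0.03 and 0.18 in Mthfd2. All of these within-slide differences were positive, and those on slide 6 were the larger. Slide 7 held controls alone and slide 9 no control.

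Atf4 measured 4.16, 3.95, 3.97 and 4.06 in these tissues, above every control, with a difference of 0.32 ± 0.09 in session 3 alone and a limma adjusted p of 0.051. On slide 8 it exceeded control 7 by only 0.02 and 0.03. Asns, Cth, Aars and Slc7a5 also lay wholly above control, with differences of 0.28 ± 0.13, 0.60 ± 0.26, 0.27 ± 0.08 and 0.45 ± 0.20 that did not pass. On slide 8, Asns exceeded control 7 by only 0.08 and 0.09 and Aars by only 0.02 and 0.07. Cth exceeded it by 0.31 and 0.47 and Slc7a5 by 0.29 and 0.54. Replicate 1 had Cth at -3.12, while the other treated samples lay between -4.07 and -3.91. In all, 8 of the 32 genes lay wholly above control (these 4, Atf4 and the 3 that rose), where 8.94% of all genes did, and 0 lay wholly below, where 7.86% did. Sdf2l1 measured 1.42, 1.69, 1.70 and 1.60, a difference of -0.50 ± 0.14 with a limma adjusted p of 0.062, and on slide 8 it was 0.07 and 0.08 above control 7.

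Other genes of the same pathways, from lists that hold none of the 33, gave the following counts in session 3 alone. Of 40 other genes of ATF4 and the integrated stress response, 3 rose and 0 fell with BIRB796, and 10 rose and 0 fell with stretch and BIRB796, with medians of 0.15 and 0.27. Over all genes 0.733% and 3.28% rose, with medians of -0.02 and 0.04. Slc1a4, a carrier of serine and other small neutral amino acids, differed by 1.20 ± 0.21 and 1.1 ± 0.21, with limma adjusted p of 0.028 and 0.018. Slc6a9, a glycine carrier, differed by 0.51 ± 0.08 and 0.47 ± 0.08, with adjusted p of 0.025 and 0.014. Stc2 differed by -0.60 ± 0.30 and -0.57 ± 0.30 and did not pass. Of 35 other ER folding and disposal genes, 0 rose and 1 fell with BIRB796, and 2 rose and 1 fell with both treatments. These counts are near the 1.78% and 7.58% of all genes that passed in either direction, and the list's medians were 0.07 and 0.16. Derl3, a factor of ER-associated degradation, fell in both, by 0.55 and 0.85 on the log2 scale (limma adjusted p 0.033 and 0.0052), and Sec61b, a subunit of the ER translocon, rose by 0.44 with both treatments (adjusted p 0.018). With controls 5 and 6 averaged, BIRB796 against control had 0 genes past the threshold in all with limma, and 14.1% of all genes at an unadjusted p under 0.05, so its 4 calls on these lists did not remain; stretch with BIRB796 against control had 102 genes in place of 1779.

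Markers of other cells moved with these groups. In session 3 the summed signal of the 8 smooth muscle markers, on a scale where the 75th percentile of an array is 1, ran from 32.1 to 41.7 in control, 47.9 to 63.5 with BIRB796 and 49.9 to 78.8 with both, and all 8 were above background on every array. The summed signal of 11 measured macrophage markers ran from 78.3 to 161, 83.2 to 112 and 68.2 to 83.6, with Mrc1 below background on some arrays. That of 10 endothelial markers ran from 2.75 to 3.65, 1.97 to 2.42 and 1.62 to 2.02, with Tek, Tie1 and Emcn below background on some arrays. That of 10 epicardial and mesothelial markers ran from 6.54 to 10.4, 3.36 to 6.55 and 3.62 to 6.11, with Upk3b, Lrrn4 and Aldh1a2 below background on some arrays. That of 10 fibroblast markers ran from 210.1 to 340, 247 to 307 and 309.5 to 354, with Tcf21 and Fap below background on some arrays. That of 8 measured erythroid markers ran from 0.725 to 0.835, 0.630 to 0.933 and 0.580 to 0.817, with Alas2 and Epb42 below background on some arrays. With both treatments the smooth muscle sum lay wholly above control and the endothelial and epicardial sums wholly below it. In bulk tissue fewer cells of a type and less RNA per cell cannot be told apart, and the part of these shifts in the ATF4 genes was not tested.

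Adding stretch to BIRB796 gave small differences. With the session term 0 of the 32 genes and 0% of all genes passed, and 2 of the 32, Cebpb and Ddit4, were at an unadjusted p under 0.05, where 1.88% of all genes were. In session 3 alone 0 of the 32 passed, against 0.081% of all genes (0.0725% as higher). The 9 amino acid genes were all positive, with a median of 0.09 against 0.05 over all genes; 7 of the 9 were positive with quantile normalization and 8 with the authors' log2 table. Ddit4 (REDD1), an mTORC1 inhibitor induced by stress, measured 1.41, 1.57, 1.21 and 1.41 with BIRB796. It measured 1.37, 1.98, 2.01 and 2.10 with stretch added, so that replicate 1 stayed in the BIRB796 range and the other 3 lay above it. The difference was 0.47 ± 0.15 in session 3 alone, with a limma adjusted p of 0.40, and 0.55 on its second probe; with array weights it was the 1 of the 32 genes that passed (adjusted p 0.030), where 0.452% of all genes passed. Cebpb measured 1.45, 1.95, 1.99 and 1.74, with a difference from BIRB796 of 0.40 ± 0.14 and an adjusted p of 0.45. Against control, Cebpb in these tissues differed by -0.13 ± 0.14, and by slide the sign differed: -0.45 on slide 6, and 0.13 and 0.17 on slide 8. Manf, a secreted ER stress factor, was the 1 gene of the 32 wholly above the BIRB796 samples, by 0.09 ± 0.07, where 4.44% of all genes were, and 0 of the 32 lay wholly below, where 1.83% did.

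**Figure D2:**
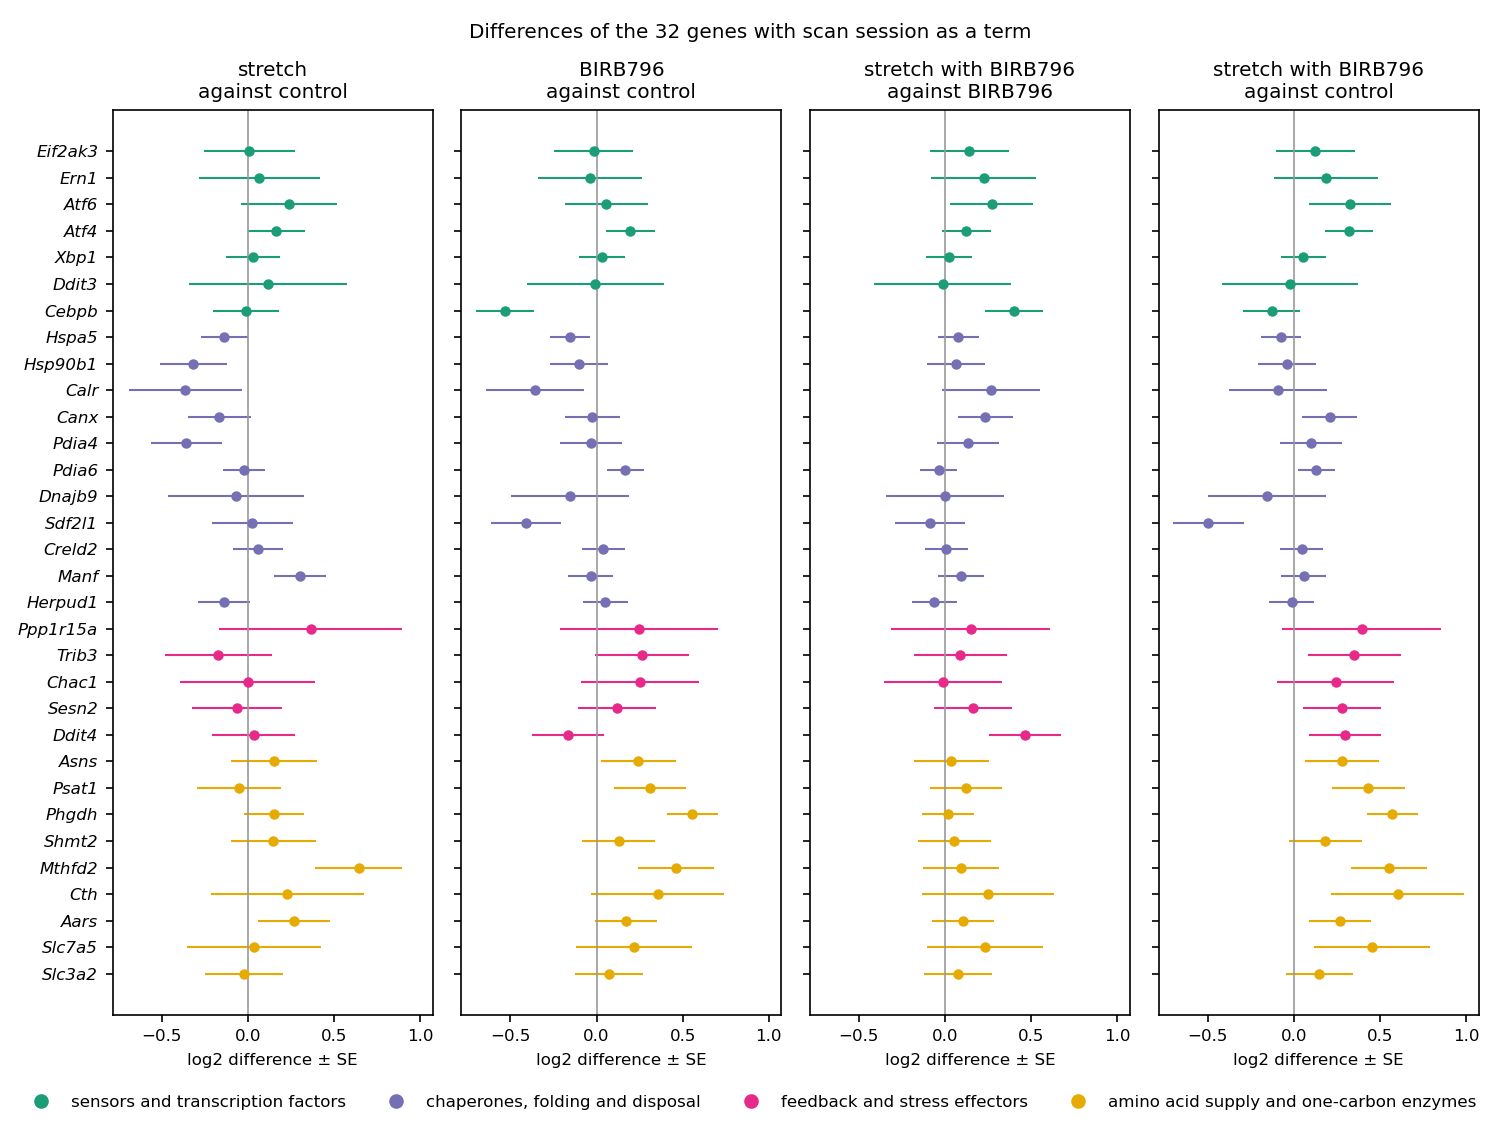
Log2 difference with its standard error (bars) from the limma fit with scan session as a term, for each of the 32 genes, in 4 comparisons and coloured by role. The 9 amino acid and one-carbon genes lie to the right of 0 in each of the 3 panels with BIRB796, while the 11 chaperone and disposal genes lie on both sides. Each difference of both treatments against control is the sum of those in the other BIRB796 panels, so these panels are not separate observations.

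Stretch without the inhibitor could be compared with control within session 1, on 3 slides. None of the 32 genes passed the test there. With the session term 0 of the 32 genes passed and 0% of all genes did, and Mthfd2 alone was at an unadjusted p under 0.05, where 3.03% of all genes were. The fit of session 1 alone and that with slide as a block also gave 0 genes in all; at an unadjusted p under 0.05 they gave 2.7% and 4.24% of all genes, and array weights gave 0.0128%, none among the 32.

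Mthfd2 measured 0.62, 0.51 and 0.14 in controls 1 to 3 and 1.67, 0.91 and 0.62 in stretch replicates 1 to 3. It was higher in stretch by 1.06, 0.40 and 0.48 on the 3 slides, and the difference was 0.64 ± 0.25 with a limma adjusted p of 1.00. Its other 2 probes gave smaller differences, 0.31 ± 0.29 and 0.31 ± 0.24. Manf measured 2.08, 2.14 and 2.01 in control and 2.52, 2.22 and 2.40 in stretch, a difference of 0.30 ± 0.15. Aars measured 2.59, 2.45 and 2.61 in control and 2.76, 2.72 and 2.97 in stretch, a difference of 0.27 ± 0.21. These 3 genes lay wholly above control, as 4.66% of all genes did.

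On every slide stretch was above its control in 5 of the 32 genes, Aars, Asns, Cth, Manf and Mthfd2, where 15.1% of all genes were. It was below its control on every slide in 4, Calr, Canx, Hsp90b1 and Pdia4, where 9.97% of all genes were. Hsp90b1 (GRP94) differed by -0.34, -0.20 and -0.41 on slides 1 to 3, and Pdia4, a disulfide isomerase, by -0.19, -0.56 and -0.32. Canx, the membrane lectin calnexin, differed by -0.31, -0.16 and -0.03. Calr differed by -0.14, -0.17 and -0.78. Canx and Pdia4 lay wholly below control, as 4.21% of all genes did. The 11 chaperone and disposal genes together had a median of -0.14 against 0.05 over all genes, with 8 of them below 0; under the 3 other scalings 7 or 9 were. Hspa5 went the other way on slide 3, by 0.06 after -0.29 and -0.18. Sdf2l1 ran from 0.62 on slide 1 to -0.42 on slide 3, and Ppp1r15a, the phosphatase subunit that ends the eIF2 alpha signal, from 0.88 on slide 1 to -0.39 on slide 2.

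**Figure D3:**
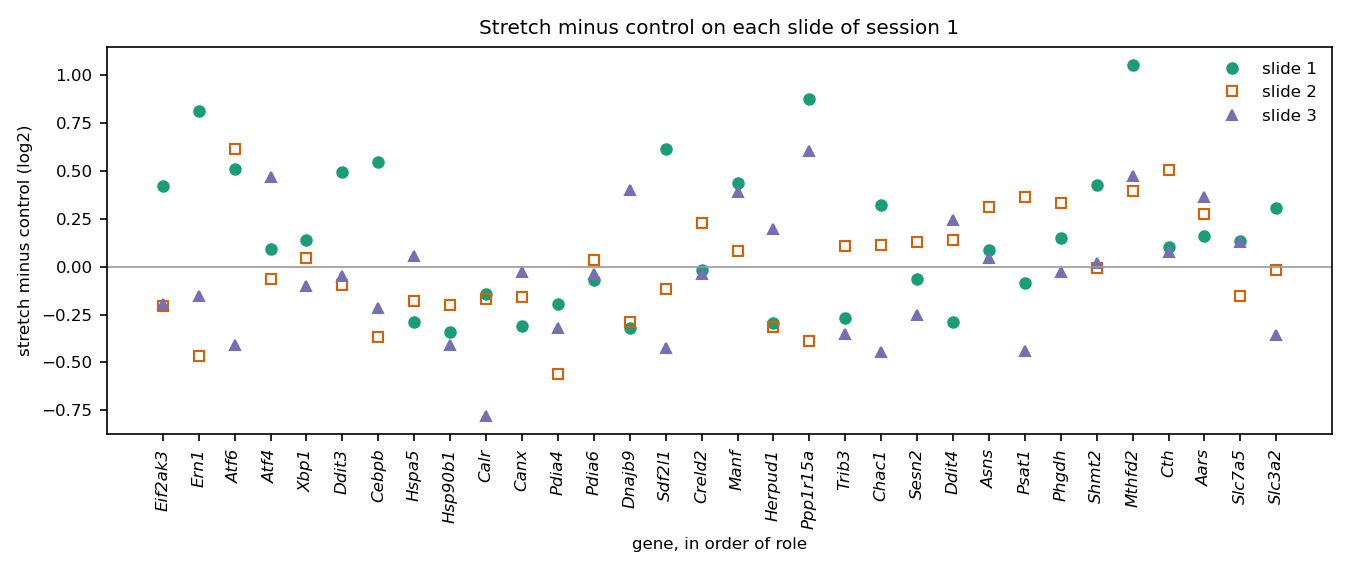
Stretch minus control in log2 units on each of the 3 slides of session 1 (1 control and 1 stretch array per slide) for the 32 genes in order of role. The 3 marks of Mthfd2 lie above 0 and those of Hsp90b1 and Pdia4 below it, while those of Ppp1r15a and Sdf2l1 lie on both sides.

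In session 1 the summed signal of the smooth muscle markers was higher in stretch than in control on all 3 slides. It ran from 25.4 to 43.4 in control and from 36.9 to 65.7 in stretch. The macrophage sum ran from 38.3 to 103 in control and from 30.9 to 61.5 in stretch. With stretch it was lower on slides 1 and 3 and higher on slide 2. The part of these markers' cells in the differences above was not tested.

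The 4 stretch arrays of session 2 had no control beside them, and their 3 distinct samples differed widely. Stretch replicate 7 had Ddit3, which encodes CHOP, at 4.21, where the 5 further stretch samples lay between 1.29 and 1.88 and the 7 controls between 1.06 and 1.70. In the same sample Ppp1r15a was at 4.03, against at most 1.90 in any other of the 21 samples, and Dnajb9 (ERdj4), a BiP cofactor induced through IRE1 and XBP1, at 0.33, against at most -0.56 elsewhere. Manf at 2.98, Creld2 at 0.92, Sesn2 at -0.43, Shmt2 at 1.67 and Slc3a2 at 2.88 were also among the 11 genes in which it was the highest of the 21 samples. Eif2ak3 at -2.92, Xbp1 at -0.15, Chac1 at -3.06, Aars at 2.03 and Psat1 at -0.51 were among the 7 in which it was the lowest. Hspa5 at 4.28 was not raised above the 3 controls of session 1, which lay between 4.43 and 4.57, and lay above the 4 of session 3, from 3.94 to 4.22. This array's 75th percentile was 846 intensity units, the lowest of all, where the next lowest was 1823; the part of its dimness in these values was not tested.

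Stretch replicate 6 had another pattern. Trib3, a pseudokinase that feeds back on ATF4, was at 0.55 there, while the remaining stretch samples lay between -1.26 and -0.65, and Asns at 2.51, Phgdh at 4.93, Mthfd2 at 1.91, Atf4 at 4.42 and Atf6 at 0.02 were the highest of the 21 samples. Its Ddit3 was 1.37, within the range of the controls. Stretch replicate 4 had neither pattern, with Ddit3 at 1.88, Trib3 at -0.71 and Asns at 1.60. The summed signal of the cardiomyocyte markers was 380 in replicate 6, the lowest of the 21 samples, and 1254 in replicate 7, the highest. In replicate 4 it was 734. The smooth muscle sum was 76.7, 109 and 41.6 in replicates 6, 7 and 4. The part of cell content in these patterns was not tested.

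**Figure D4:**
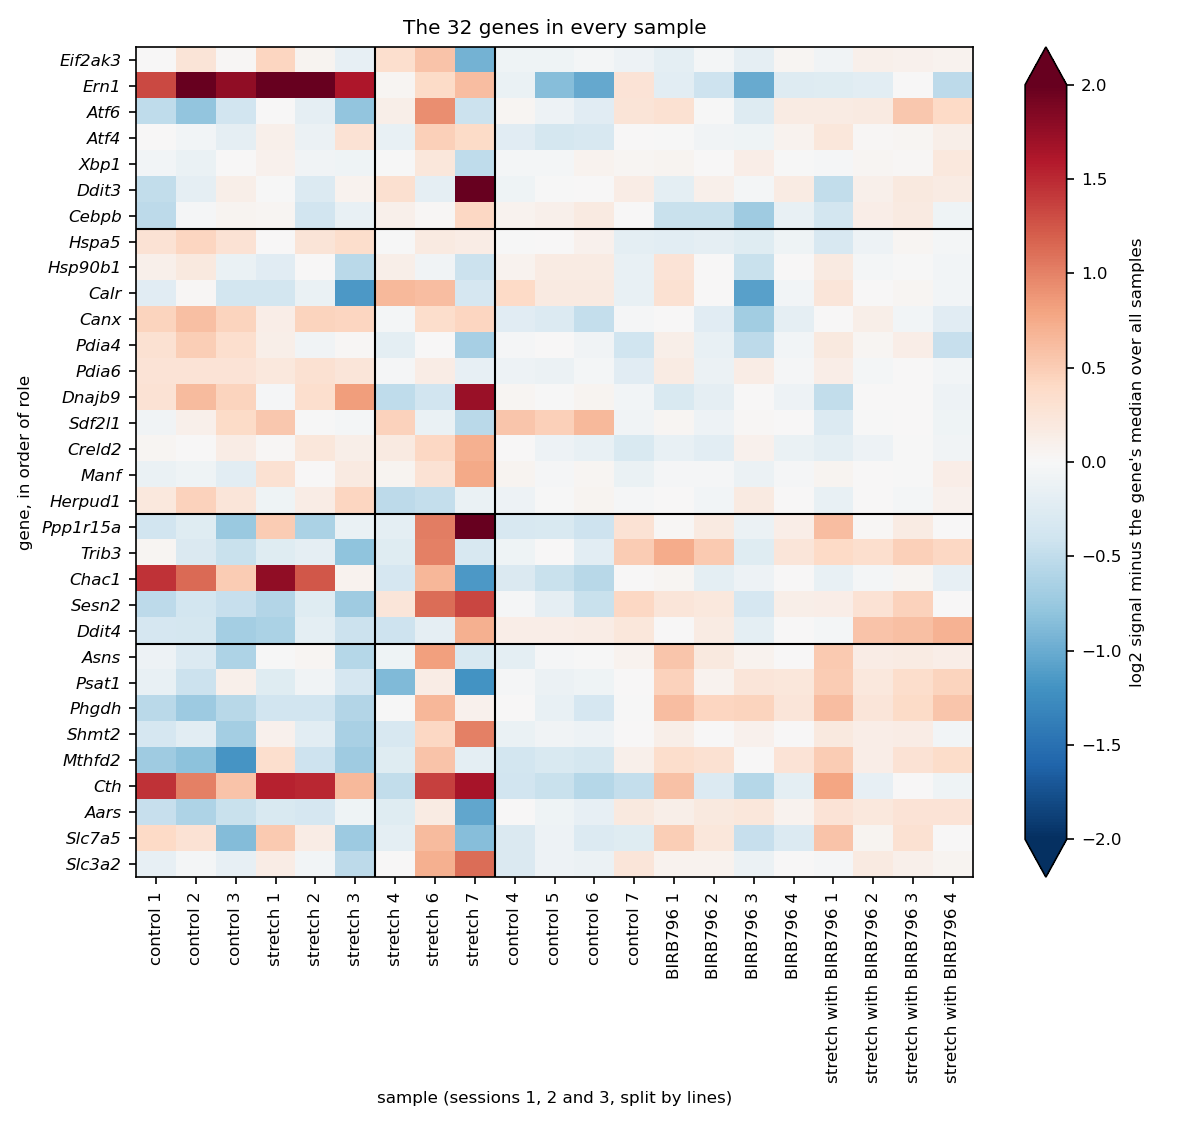
Log2 signal of each of the 32 genes (rows, in order of role) in each of the 21 samples (columns, by scan session), minus the gene's median over all samples; colours end at -2 and 2. Stretch replicate 7 is high in Ddit3, Ppp1r15a and Dnajb9, and stretch replicate 6 is high in Trib3, Asns and Atf6. Ern1 is higher in every session 1 sample than in any later one. Chac1 and Cth are higher in the session 1 controls than in those of session 3, but some later samples, stretch replicate 6 among them, reach the session 1 range.

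A comparison that sets the stretch arrays of session 2 against the controls of session 3, with only session 1 apart from the rest, gave Manf as the 1 gene of the 32 that passed (0.35 ± 0.10 with limma, adjusted p 0.049), where 7.89% of all genes passed. Without stretch replicate 7, 0 of the 32 passed and 5.96% of all genes did. Session and group cannot be told apart for those stretch arrays. The controls of sessions 1 and 3 themselves differed by a median size of 0.32 over the 32 genes and 0.57 over all genes; Ern1, Cth and Chac1 were higher in session 1 by 2.36, 1.47 and 1.35, and Mthfd2 and Ddit4 lower by 0.68 and 0.61.

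Stretched tissue with BIRB796 and stretched tissue without it lay in no common session. Through the controls of the sessions, 0 of the 32 genes and 0% of all genes passed, and 0 of the 32 were at an unadjusted p under 0.05, where 2.25% of all genes were; array weights gave 0.124% of all genes, none among the 32. Phgdh had a difference of 0.42 ± 0.23 and Psat1 of 0.48 ± 0.32. The stretch effect with BIRB796 minus that without it was tested as an interaction, and 0 of the 32 genes and 0% of all genes passed, with 0 of the 32 at an unadjusted p under 0.05, where 1.37% of all genes were; array weights gave 0.00853%, none among the 32. For Mthfd2 this difference was -0.55 ± 0.34 on the probe used and -0.07 ± 0.38 and -0.07 ± 0.32 on its other 2 probes, while for Pdia4 it was 0.49 ± 0.27 and for Calr 0.63 ± 0.43.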

How the data were processed

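Total RNA of 22 engineered cardiac tissues was measured on 1-colour Agilent rat arrays. The deposited scanner files hold spot intensity, background-subtracted and detrended within each array by Feature Extraction but not scaled between arrays, per the file headers. A log2 table by the authors was deposited too, with unknown scaling and centring (column medians from -0.11 to 0.40), and served as an alternative. Control spots and outlier flags were left out, processed signals were taken to log2, and each array's 75th percentile over gene spots was subtracted. Genes needed a probe well above background in 4 or more arrays, with the brightest probe per gene. Names were updated through RefSeq (GRCr8): 18379 probes by accession, 2194 by symbol and 593 by synonym.

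Linear models were fitted in R 4.3.3 by limma 3.58.1 (lmFit with eBayes; two-sided, Benjamini-Hochberg over 23456 genes, threshold 0.05) on all groups with scan session, read from the file headers, as a term. The code was tested on simulated data. Non-overlap was counted over 23236 genes with a value in every sample. The number of arrays limits the precision. All members are named; in each of 2 lists of other pathway genes, the 2 genes of smallest p in each direction and comparison could be named. The genes and lists were chosen with earlier results of these data known. Same-numbered control and stretch arrays deviated together (r from 0.35 to 0.90): replicates 1 to 3 share slides, the others not even a session. The deviations were taken from group means over all sessions, and in both groups replicates 1 to 3 alone were in session 1. These r therefore cannot tell pairing from session. For replicates 2, 4 and 6 another number matched better. Blocking on the number changed no call of stretch against control.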

Additional observations from a re-analysis of the deposited data

Results flagged for a closer look

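Of 128 tests of a single sample far from the rest of its group, 11 were positive, where chance gives about 1 in 20 groups. Stretch replicate 7 was far above its group in Ddit3 (4.21) and Ddit4 (2.13), and stretch replicate 6 in Trib3 (0.55). Stretch with BIRB796 replicate 1 stood apart in 4 genes: Asns (2.21) and Cth (-3.12) were high, and Ddit3 (1.06) and Ddit4 (1.37) low. Replicate 2 of that group was low in Aars (3.28), where the 3 remaining samples were all 3.33. Control replicate 2 was high in Eif2ak3 (-1.72) and control replicate 1 low in Cebpb (1.31), both in session 1. BIRB796 replicate 3 was low in Manf (2.10), where the next lowest was 2.19. The stretch and control groups span sessions, and the part of session in these gaps was not tested.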

How the results depend on the processing

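With scan session as a term 0 of the 32 genes passed in any comparison, so there was no call whose sign an alternative could change. Counts of all genes past the threshold did depend on the fit. For stretch against control (0 with the session term), the array set term gave 1851 (1 of the 32 genes), that term without stretch replicate 7 gave 1399, no batch term 271, slide as a random block 1 and array weights 3. For BIRB796 against control (0), session 3 alone gave 418 (1 of the 32), the same with slide as a random block 63, array weights 2674 (5 of the 32) and the array set term without stretch replicate 7 gave 39. For stretch with BIRB796 against BIRB796 (0), session 3 alone gave 19, with slide as a random block 24, with controls 5 and 6 averaged 9, and array weights 106 (1 of the 32). For stretch with BIRB796 against control (18), session 3 alone gave 1779 (3 of the 32), with slide as a random block 1675 (3 of the 32), with controls 5 and 6 averaged 102, array weights 4660 (9 of the 32), the array set term 2, that term without stretch replicate 7 gave 167, no batch term 1, slide as a random block 70 and controls 5 and 6 averaged 0. For stretch with BIRB796 against stretch (0), the array set term gave 235, that term without stretch replicate 7 gave 132, no batch term 132 and array weights 29; for the interaction (0), array weights gave 2. The causes were not tested. Leaving out 1 sample gave 0 of the 32 genes in every comparison and, over all genes, 0 in stretch against control, 0 to 35 in BIRB796 against control, 0 to 2 in stretch with BIRB796 against BIRB796, 0 to 200 against control, 0 to 1 against stretch and 0 to 1 for the interaction. In session 3 alone it gave 0 to 2288, 0 to 30 and 99 to 3815 genes, with 0 to 5, 0 and 0 to 8 of the 32. Apart from stretch against control, the groups share only a replicate number, and the replicate block, with every array on its own, gave 305 genes for BIRB796 against control and 1337 (2 of the 32) for stretch with BIRB796 against control, where blocks 1 to 3 pair arrays of different sessions. Fits within session 3 with slide blocked or controls 5 and 6 averaged, and the array set term without stretch replicate 7, were chosen after seeing the data.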
